A study of Mus musculus with 34 samples.

Results

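The transcripts of 10 genes of transforming growth factor beta (TGF-beta) and activin signalling were followed in mouse limb buds with and without *Hnrnpk*, the gene for an RNA- and DNA-binding protein of the nucleus. The genes were the ligands *Tgfb1*, *Tgfb2*, *Tgfb3* and *Inhba*, the receptors *Tgfbr1*, *Tgfbr2* and *Acvr2a*, the transducers *Smad2* and *Smad3*, and the activin inhibitor *Fst*. They were picked by name, and all 10 were found among the 22040 genes of the deposited mRNA-seq table. Of 34 samples in the study, the 6 mRNA-seq libraries were used, and the chromatin assays were not analysed here.

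The libraries came from limb bud cells of embryos at E11.5, with 3 libraries from WT embryos (genotype label Hnrnpk WT) and 3 from CKO embryos (*Prrx1-Cre;Hnrnpk* fl/fl). *Prrx1-Cre* is active in the limb bud mesenchyme, so the ectoderm, the vessels, the blood and the incoming muscle precursors of a CKO limb bud are expected to keep the gene, and the study raised incomplete ablation in the hindlimb as a possibility. Whether the WT embryos carried *Prrx1-Cre* or a floxed allele, how many embryos went into a library and which limb pair was taken are not given in the sources used here. In such bulk tissue, fewer cells of a type and less RNA per cell cannot be told apart. *P* values from these libraries measure the spread between them.

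The TGF-beta ligands and the activins are secreted dimers. Activin A is a dimer of the chain encoded by *Inhba*. A ligand binds a type II receptor (TGFBR2 for TGF-beta, ACVR2A for activin), which then phosphorylates a type I receptor such as TGFBR1, and the type I receptor phosphorylates SMAD2 and SMAD3. The phosphorylated SMADs join SMAD4 and act on genes in the nucleus. TGF-beta is stored in the matrix in a latent form, and follistatin, the product of *Fst*, traps activin outside the cell. In the limb bud this pathway is known for its part in cartilage condensation, in the induction of tendon progenitors and in the digit ray.

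*Hnrnpk* itself was at 193, 195 and 185 FPKM (fragments scaled to exon length and to library size) in WT replicates 1, 2 and 3, and at 127, 142 and 135 FPKM in CKO replicates 1, 2 and 3. The groups did not overlap, and the CKO mean was 0.706 times the WT mean, although the limma test with adjustment over all genes gave an adjusted *p* value of 0.33. That value was 0.057 with the replicate number as a block, 0.022 with limma voom and the block, and 0.038 in replicates 2 and 3 alone, or 0.19 there with no filter on low values. These FPKM values cover the whole gene, the exons outside the floxed ones included. Between 17143034 and 24627737 reads fell on the listed genes of a library. Replicate 1 of WT and replicate 1 of CKO stood apart from the other 4 libraries on the first principal component, which held 52.6% of the variance, while WT and CKO separated on the second component, with 25.97%. All 12 limb bud mesenchyme markers were detected in each library, and their summed FPKM ran from 388 to 410 in WT and from 337 to 390 in CKO. No marker of the other cell types was at 0 throughout. Summed erythroid markers ran from 37854 to 64060 FPKM in WT and from 30882 to 143029 in CKO, muscle precursor markers from 16.2 to 49.4 and from 34.9 to 67.8, ectoderm markers from 47.8 to 79.1 and from 52.6 to 81.1, and macrophage markers from 25.9 to 40.6 and from 27.7 to 56.9. Endothelial markers ran from 24.3 to 34.9 and from 17.2 to 27.0 FPKM, neural crest and Schwann markers from 3.34 to 8.29 and from 6.72 to 8.90, and platelet markers from 17.2 to 28.6 and from 11.2 to 32.2. Within each group, the sums of the erythroid, muscle precursor, ectoderm, macrophage, neural crest and platelet markers were lowest in replicate 1, and the part of these cells in the results below was not tested. Results are given over all 6 libraries. For the members and some other genes they are also given over replicates 2 and 3 of each group alone. That subset was added after the values were seen.

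None of the members was called different between CKO and WT over all 6 libraries. The limma test on log2(FPKM + 0.1) was run for 9 of the 10 members, since *Inhba* fell under the filter of a mean FPKM of 0.5, and it called 0 members at an adjusted *p* value under 0.05, while 0.0650% of the 12305 genes tested were called. At an unadjusted *p* value under 0.05 there were also 0 members, against 8.31% of all genes, and limma voom on the recovered read counts gave 0 at both thresholds. The threshold of the study asks for a fold above 2 or below 0.5 besides an unadjusted *p* value under 0.05, and 0 members reached it, against 0.666% of all genes. The members' median log2 difference was -0.07, from -0.33 for *Tgfb2* to 0.16 for *Smad2*, and the median of all genes tested was 0.00.

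**Figure D1:**
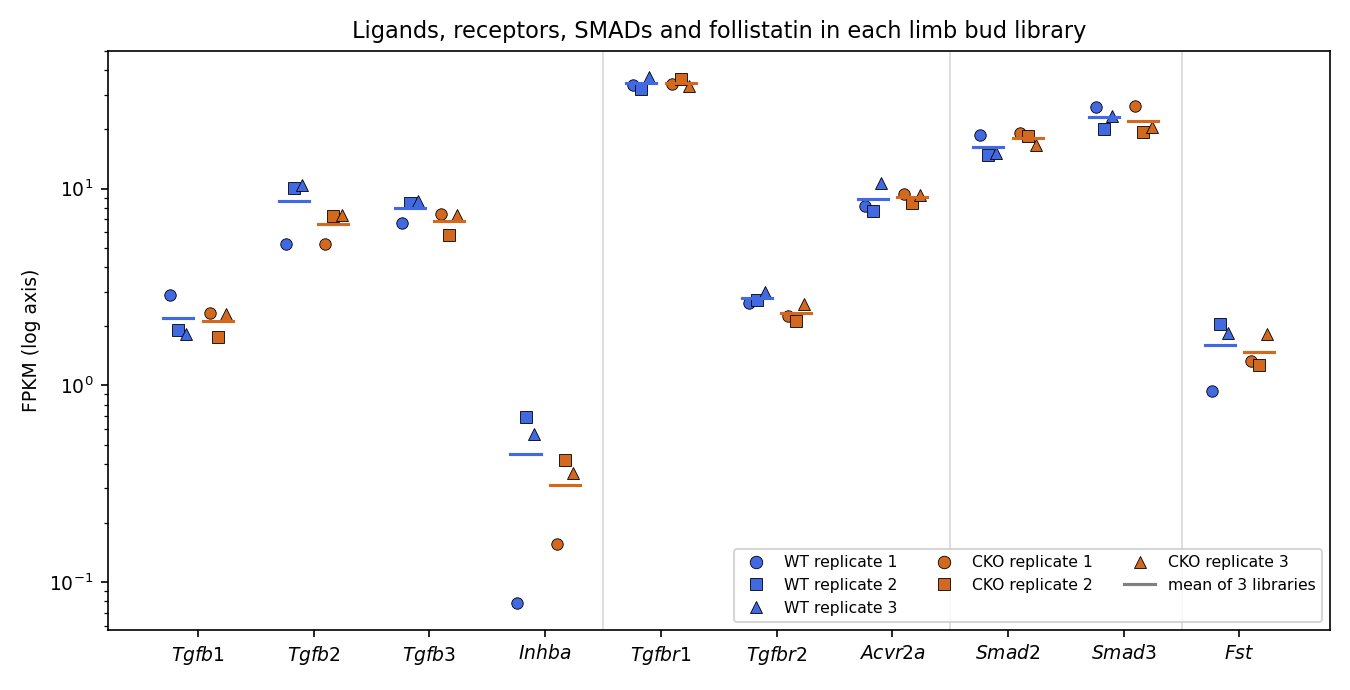
FPKM of the 10 genes in each library on a log axis, ordered as ligands, receptors, SMADs and *Fst*. WT is blue and CKO orange, the symbol gives the replicate, and each line is the mean of 3 libraries. *Tgfbr1* was the highest in every library at 32.0 to 36.9 FPKM. Among the WT libraries *Tgfb2*, *Tgfb3*, *Inhba*, *Tgfbr2* and *Fst* were lowest in replicate 1.

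The levels of the members spanned from under 1 FPKM to over 30 FPKM. In WT the order of the mean FPKM was *Tgfbr1* (34.2), *Smad3* (23.2), *Smad2* (16.2), *Acvr2a* (8.86), *Tgfb2* (8.62), *Tgfb3* (7.95), *Tgfbr2* (2.78), *Tgfb1* (2.21), *Fst* (1.61) and *Inhba* (0.446). *Acvr2a*, *Tgfb2* and *Tgfb3* overlapped with their neighbours in that order over the 3 WT libraries, as did *Tgfbr2*, *Tgfb1* and *Fst*. The other steps were apart. In CKO the order was the same, except that *Tgfb3* (6.87) stood before *Tgfb2* (6.61), with overlapping ranges. The type I receptor transcript was thus more abundant than the TGF-beta type II receptor transcript in each library, by 11.8 to 12.9 times in WT and by 12.9 to 16.9 times in CKO.

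*Tgfb2*, which encodes 1 of the 3 TGF-beta ligands, had the largest difference of the 9 members tested. On GRCm38 the gene is at chr1:186622792-186705989 on the minus strand. It was at 5.24, 10.1 and 10.5 FPKM in WT replicates 1, 2 and 3 and at 5.21, 7.27 and 7.36 FPKM in CKO replicates 1, 2 and 3, from 546 to 1404 reads. The replicate 1 libraries of both groups were low and nearly equal, while CKO replicates 2 and 3 lay below WT replicates 2 and 3, so the groups overlapped only through replicate 1. The log2 difference was -0.33 ± 0.28 (SE, n = 3 per group), with a 95% interval from -0.98 to 0.32 and an adjusted *p* value of 0.83. With the replicate number as a block, the unadjusted *p* value of the limma fit was 0.021 and the adjusted one 0.18. This was the 1 member past the unadjusted threshold in that fit, against 18.4% of all genes, and 0 members were called after adjustment, against 2.81%. In replicates 2 and 3 alone, the log2 difference was -0.49 (95% interval from -0.75 to -0.23), with an adjusted *p* value of 0.0074. That call rested on the filter on low values, and with no filter the same 4 libraries gave an adjusted *p* value of 0.18. Over the alternatives run for *Tgfb2*, the adjusted *p* value of limma went from 0.0074 to 0.99995.

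*Tgfb3*, whose product is closely related to that of *Tgfb2*, is at chr12:86056745-86079041 on the minus strand. It was at 6.72, 8.47 and 8.66 FPKM in WT and at 7.45, 5.82 and 7.34 FPKM in CKO. CKO replicate 2 was the lowest library, and CKO replicates 1 and 3 lay between the lowest WT library and the other two. CKO minus WT came to a log2 difference of -0.21 ± 0.16 (adjusted *p* = 0.80). In replicates 2 and 3 alone it was -0.39 (95% interval from -0.66 to -0.11, adjusted *p* = 0.048), against 0.048 to 0.99995 over its alternatives. With no filter the interval in these libraries ran from -0.78 to 0.0088 and the adjusted *p* value was 0.26. *Tgfb2* and *Tgfb3* were the 2 members called lower in those 4 libraries, where 8.00% of all genes were called lower and 15.0% in either direction. With no filter, 0 of 17892 genes were called in these libraries, and the median total degrees of freedom of the limma fit were 3.74 in place of 35.5. The choice of these libraries was made after their values were seen, and whether the effect differed between replicate numbers was not tested.

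*Tgfb1*, the ligand best known from immune cells, platelets and matrix, is at chr7:25687002-25705077 on the plus strand. It was at 2.88, 1.92 and 1.84 FPKM in WT and at 2.35, 1.76 and 2.30 FPKM in CKO, from 170 to 277 reads. Here the replicate 1 library was the highest of each group, and WT spanned all the CKO libraries except replicate 2. On the log2 scale the difference was -0.03 ± 0.21, with a 95% interval from -0.53 to 0.46 (adjusted *p* = 0.98). The sign changed in replicates 2 and 3 alone, where it was 0.10 (95% interval from -0.26 to 0.45).

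*Inhba*, at chr13:16011851-16031621 on the plus strand, was the lowest of the members. It was at 0.0781, 0.693 and 0.567 FPKM in WT and at 0.156, 0.417 and 0.361 FPKM in CKO. These values rested on 9, 106 and 79 reads in WT and on 18, 51 and 55 reads in CKO. Both replicate 1 libraries were far below the rest, and among replicates 2 and 3 the CKO libraries were below the WT libraries. With no filter on low values, the limma log2 difference was -0.21 ± 0.58 (adjusted *p* = 0.95), with a 95% interval from -1.56 to 1.14. In replicates 2 and 3 alone with no filter it was -0.58 (adjusted *p* = 0.23), which did not pass the test.

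**Figure D2:**
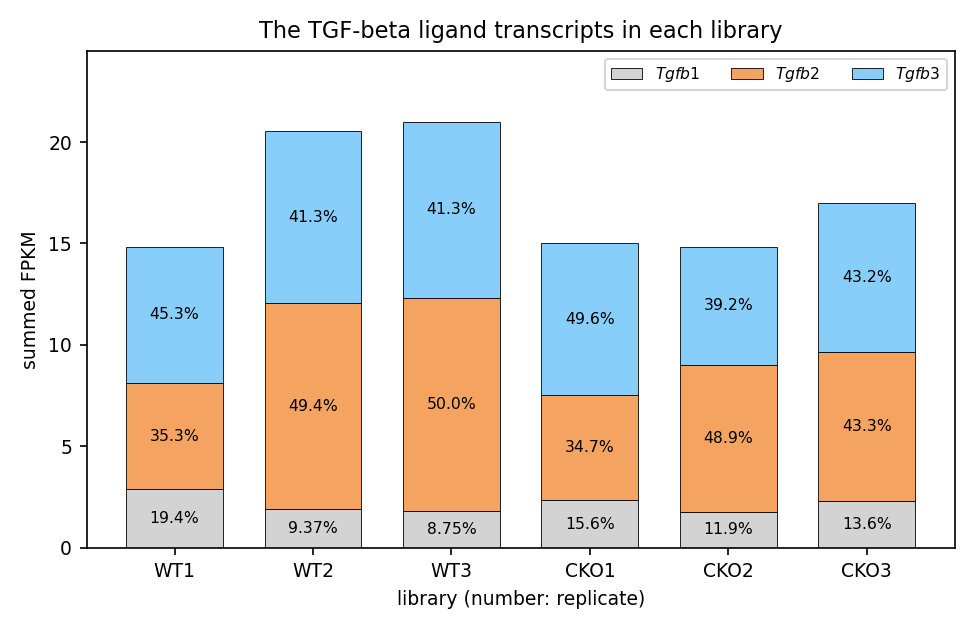
Summed FPKM of *Tgfb1*, *Tgfb2* and *Tgfb3* in each library, with the share of each ligand printed in its part of the bar. WT replicates 2 and 3 reached 20.5 and 20.99 FPKM, and the other libraries 14.8 to 16.998 FPKM.

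The make-up of the TGF-beta ligand transcripts was not told apart between WT and CKO. *Tgfb2* made up 35.3%, 49.4% and 50.0% of the summed FPKM of the TGF-beta ligands in WT and 34.7%, 48.9% and 43.3% in CKO. *Tgfb1* made up 19.4%, 9.37% and 8.75% in WT and 15.6%, 11.9% and 13.6% in CKO. In replicate 1 of both groups the share of *Tgfb2* was the lowest and that of *Tgfb1* the highest. The log2 ratio of *Tgfb2* to *Tgfb3* was 0.06 ± 0.36 (SD, n = 3) in WT and -0.06 ± 0.42 in CKO (exact two-sided permutation test, *p* = 0.70). The log2 ratio of *Tgfb1* to the sum of the other two was -2.90 ± 0.74 in WT and -2.67 ± 0.23 in CKO (exact permutation test, *p* = 0.60). With 3 libraries against 3, the smallest *p* value this test allows is 0.10, and 5 ratios were compared, so that none could pass.

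The 250 bases before the annotated start are printed for *Tgfb2* and *Inhba*, which shared the low level in replicate 1 and the lower level in CKO replicates 2 and 3, and for *Tgfb1*, which did not. These genes were picked after their values were seen. *Scx*, *Dcn* and *Wfikkn2* of the pathway list had the same pattern, and their promoters are not described here. The sequences are from RefSeq on GRCm38.p6, read 5′ to 3′ on the strand of the gene, at chr1:186705990-186706239 (minus strand), chr13:16011601-16011850 (plus strand) and chr7:25686752-25687001 (plus strand). RefSeq starts were matched for 7 of the 10 members. None was matched for *Tgfb3*, *Fst* and *Smad2*, so their promoters were not searched. Capitals mark matches, on either strand, to the TATA box (letters TATAAA), the E-box (letters CACGTG), the GC box (letters GGGCGG) and the CT element (letters CCCTCCC). Matches of the last kind can overlap those of the GC box, as 1 does in *Tgfb1*.
Tgfb2: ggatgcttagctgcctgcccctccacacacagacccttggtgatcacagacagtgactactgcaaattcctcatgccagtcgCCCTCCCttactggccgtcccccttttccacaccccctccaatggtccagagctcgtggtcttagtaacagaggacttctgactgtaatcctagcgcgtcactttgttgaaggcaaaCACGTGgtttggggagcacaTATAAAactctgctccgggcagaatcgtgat
Inhba: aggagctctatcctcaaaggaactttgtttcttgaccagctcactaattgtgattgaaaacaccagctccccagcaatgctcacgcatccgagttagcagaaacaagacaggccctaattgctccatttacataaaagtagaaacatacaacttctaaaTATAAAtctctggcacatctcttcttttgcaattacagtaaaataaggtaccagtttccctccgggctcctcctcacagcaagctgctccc
Tgfb1: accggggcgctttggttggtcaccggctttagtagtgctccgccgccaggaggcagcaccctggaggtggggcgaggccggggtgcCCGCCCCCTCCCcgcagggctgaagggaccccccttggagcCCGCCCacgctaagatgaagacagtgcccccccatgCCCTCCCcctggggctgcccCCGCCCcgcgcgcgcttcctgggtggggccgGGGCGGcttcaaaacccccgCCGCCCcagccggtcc

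*Tgfb2* held a TATA box match 31 bases and an E-box match 51 bases before its start, and *Inhba* held a TATA box match 91 bases before its start. Neither held a GC box match. *Tgfb1* held 5 GC box matches and no TATA box match, and 75.2% of its bases were G or C, against 53.6% in *Tgfb2* and 43.2% in *Inhba*. *Acvr2a*, *Smad3* and the upstream start of *Tgfbr1* also held GC box matches and no TATA box match, while the second listed start of *Tgfbr1* and that of *Tgfbr2* held no match to any motif searched. Of 32851 RefSeq promoter stretches of this length, 12.4% held a TATA box match, 6.02% an E-box, 32.7% a GC box and 19.7% a CT element match. Searches on both strands for the cyclic AMP response element (letters TGACGTCA), which 1.55% of the stretches held, for the palindromic SMAD element (letters GTCTAGAC), with 0.167%, and for the AP-1 site (letters TGANTCA), with 6.75%, found no match in these members. The matches are letters only, and whether a factor binds there was not measured. Whether the matches have a part in the levels was not tested.

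Of the receptors, *Tgfbr2*, the type II receptor for TGF-beta, was the 1 member whose groups did not overlap. The gene is at chr9:116084293-116175360 on the minus strand. It was at 2.62, 2.71 and 3.002 FPKM in WT and at 2.25, 2.12 and 2.59 FPKM in CKO, from 333 to 536 reads, so that the highest CKO library lay just under the lowest WT library. Of all genes tested, 8.86% had their CKO values below all their WT values. The log2 difference was -0.25 ± 0.14, with a 95% interval from -0.58 to 0.08 and an adjusted *p* value of 0.71. The CKO library was below the WT library of its own number each time, with log2 differences of -0.21, -0.34 and -0.20 for numbers 1, 2 and 3. The block did not bring it past the test (adjusted *p* = 0.35), and neither did replicates 2 and 3 alone (adjusted *p* = 0.26).

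*Tgfbr1*, the type I receptor for TGF-beta, is at chr4:47353222-47414931 on the plus strand. It was at 33.8, 32.0 and 36.9 FPKM in WT and at 34.0, 35.9 and 33.4 FPKM in CKO, from 3984 to 5261 reads. The CKO libraries all lay inside the WT range. CKO minus WT came to a log2 difference of 0.01 ± 0.11, with a 95% interval from -0.25 to 0.27 (adjusted *p* = 0.99). In replicates 2 and 3 alone it was 0.01 (limma, adjusted *p* = 0.97). The log2 ratio of *Tgfbr1* to *Tgfbr2* was 3.62 ± 0.06 (SD, n = 3) in WT and 3.89 ± 0.20 in CKO (exact permutation test, *p* = 0.20), and it was higher in CKO by 0.23, 0.52 and 0.065 for replicate numbers 1, 2 and 3.

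*Acvr2a*, a type II receptor for activin, is at chr2:48814109-48903269 on the plus strand. It was at 8.21, 7.69 and 10.7 FPKM in WT and at 9.44, 8.47 and 9.29 FPKM in CKO, all the CKO libraries again falling inside the WT range. On the log2 scale the difference was 0.05 ± 0.15, with a 95% interval from -0.30 to 0.39 (adjusted *p* = 0.96). In replicates 2 and 3 alone it was -0.03 (limma, adjusted *p* = 0.91).

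Neither SMAD transcript separated the groups. *Smad2*, at chr18:76241580-76310963 on the plus strand, was at 18.8, 14.8 and 15.1 FPKM in WT and at 19.1, 18.5 and 16.6 FPKM in CKO. Each CKO library was above its same-numbered WT library, yet WT replicate 1 lay among the CKO values. The log2 difference was 0.16 ± 0.13, with a 95% interval from -0.15 to 0.47 (adjusted *p* = 0.83). In replicates 2 and 3 alone it was 0.23 (limma, adjusted *p* = 0.23). *Smad3*, at chr9:63646767-63757994 on the minus strand, was at 25.98, 20.1 and 23.4 FPKM in WT and at 26.3, 19.5 and 20.5 FPKM in CKO. Its groups overlapped over nearly their whole range, and the log2 difference was -0.07 ± 0.16 (95% interval from -0.44 to 0.30, adjusted *p* = 0.93). In replicates 2 and 3 alone it was -0.12 (limma, adjusted *p* = 0.57). The log2 ratio of *Smad2* to *Smad3* was -0.52 ± 0.10 (SD, n = 3) in WT and -0.28 ± 0.19 in CKO (exact permutation test, *p* = 0.20), with differences of 0.0050, 0.37 and 0.33 for replicate numbers 1, 2 and 3.

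*Fst*, which encodes follistatin, is at chr13:114452290-114458951 on the minus strand. It was at 0.937, 2.04 and 1.85 FPKM in WT and at 1.33, 1.27 and 1.83 FPKM in CKO. WT replicate 1 was the lowest library and WT replicates 2 and 3 the highest, with the CKO libraries between them. CKO minus WT came to a log2 difference of -0.07 ± 0.30, with a 95% interval from -0.76 to 0.62 (adjusted *p* = 0.97). In replicates 2 and 3 alone it was -0.33 (limma, adjusted *p* = 0.23). Between same-numbered libraries it was 0.46, -0.65 and -0.02 for numbers 1, 2 and 3. There were 11.99, 2.95 and 3.26 times as many FPKM of *Fst* as of *Inhba* in WT and 8.52, 3.05 and 5.06 times in CKO. That ratio was highest in replicate 1 of each group, where *Inhba* rested on the fewest reads, and its log2 mean differed by 0.06 between the groups (exact permutation test, *p* = 0.90).

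**Figure D3:**
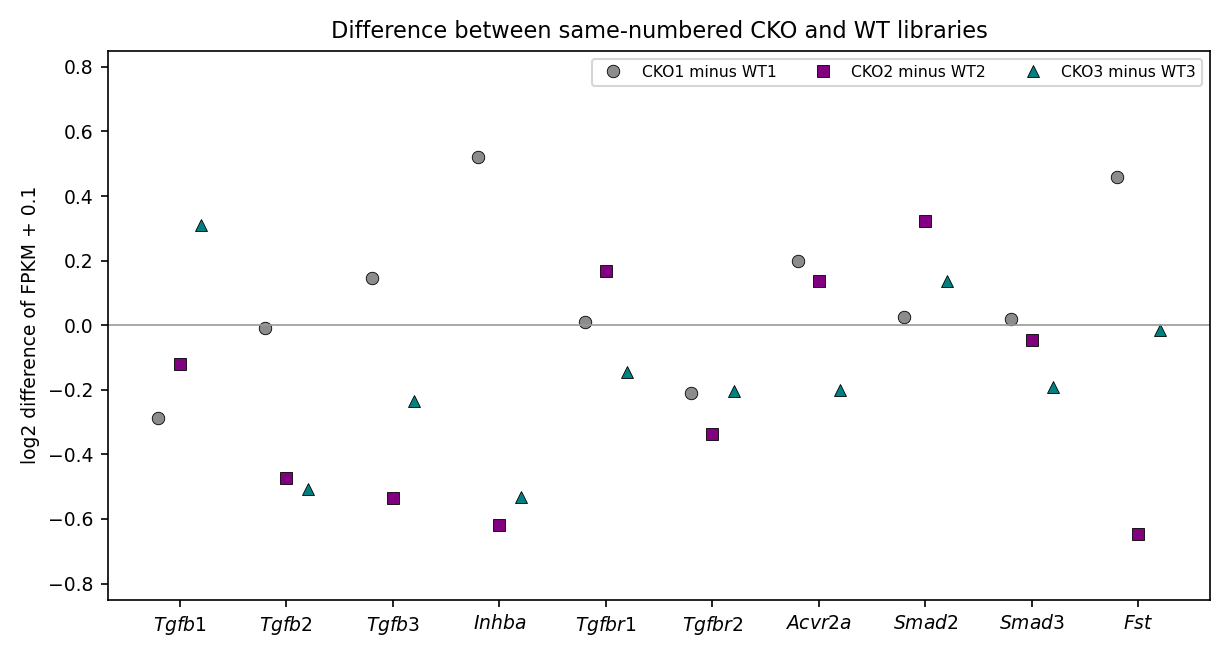
Log2 difference of FPKM + 0.1 between the CKO and the WT library of the same replicate number, for each member. *Tgfbr2* was below 0 for each number, as was *Tgfb2* though at -0.0083 for number 1, while *Tgfb3*, *Inhba* and *Fst* were above 0 for number 1 and below 0 for numbers 2 and 3.

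**Figure D4:**
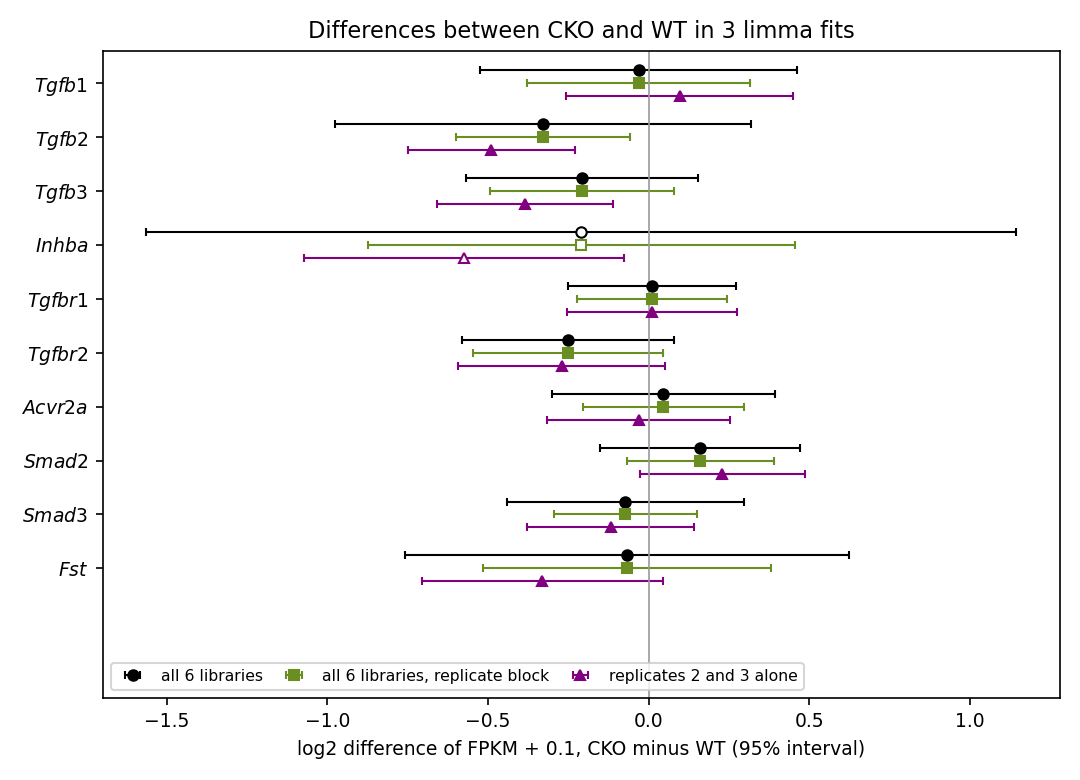
Log2 difference between CKO and WT with its 95% interval in the limma fit over all 6 libraries (black), the same fit with the replicate number as a block (green) and replicates 2 and 3 alone (purple). Open symbols for *Inhba* mark fits with no filter on low values. The interval of *Tgfb2* left 0 out in the last 2 fits and those of *Tgfb3* and *Inhba* in the last one.

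Exon stretches of *Tgfb2* (124 bases), *Tgfb3* (420 bases), *Fst* (115 bases) and *Acvr2a* (446 bases) lie opposite exons of another gene. The kit keeps the strand, but whether the counting used it is not given in the sources used here, so reads of these stretches cannot be assigned with certainty.

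The other genes of the pathway were described from a list of 61 genes in 6 roles, of which 46 were tested. Over all 6 libraries, 0 of the 46 were called, 3 were below an unadjusted *p* value of 0.05, against 8.31% of all genes, all of them lower in CKO (*Inha*, *Ltbp3* and *Fbn1*, the last named after its values were seen), and the median log2 difference was -0.08. Of the 15 that were not tested, *Gdf1* and *Tdgf1* were listed at 0 in all libraries. All 1349 exon bases of *Gdf1* are shared with another gene on the same strand, so its 0 does not show that it was absent. With the replicate block 1 gene of the list was called, against 2.81% of all genes. This was *Inha*, which encodes the inhibin alpha chain, the partner that turns an activin chain into inhibin. In replicates 2 and 3 alone 2 were called higher and 9 lower, where 15.0% of all genes were called and 8.00% were called lower. With no filter on low values, 0 genes of the list were called with the block and 0 in replicates 2 and 3 alone, so each call of these 2 fits named below rests on that filter.

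*Inha* was the gene of the list that came nearest to a call over all 6 libraries. It was at 2.52, 3.34 and 2.80 FPKM in WT and at 1.84, 1.20 and 1.62 FPKM in CKO, from 34 to 118 reads. All CKO libraries were below all WT libraries. On the log2 scale the difference was -0.86 ± 0.20 (95% interval from -1.32 to -0.41), with an adjusted *p* value of 0.26, and of 0.027 with the replicate block (4.2e-05 to 0.91 over its alternatives). With the block and no filter it was 0.18. Limma voom with the block, run with the filter, gave an adjusted *p* value of 0.039, where 424 of 12300 genes were called lower. Voom on summed reads with the block gave 0.022. The difference was negative for each replicate number, at -0.44, -1.40 and -0.75. *Gdf11*, the other ligand tested and the most abundant one at 18.3 ± 0.645 FPKM in WT and 15.9 ± 2.45 in CKO (SD, n = 3), was not called (adjusted *p* = 0.76).

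Of the other receptors and co-receptors, 4 were tested and 0 called in any of the 3 fits. *Acvr2b*, the second activin type II receptor, was at 13.5, 6.12 and 7.41 FPKM in WT and at 14.9, 8.59 and 7.00 FPKM in CKO, with replicate 1 the highest of each group. *Tgfbr3*, which encodes betaglycan, a co-receptor that presents TGF-beta2, was at 3.39, 2.66 and 2.75 FPKM in WT and at 2.90, 2.34 and 2.26 FPKM in CKO (log2 difference -0.22 ± 0.16, adjusted *p* = 0.79).

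Of 3 secreted inhibitors tested, 0 were called over all 6 libraries and 2 were called lower in replicates 2 and 3 alone, *Dcn* and *Wfikkn2*. *Dcn*, the gene for decorin, a matrix proteoglycan that binds TGF-beta, was at 0.247, 1.57 and 1.75 FPKM in WT and at 0.246, 0.832 and 0.539 FPKM in CKO. *Wfikkn2*, whose product binds myostatin and GDF11, was at 1.88, 4.18 and 4.82 FPKM in WT and at 2.27, 2.95 and 2.97 FPKM in CKO. Both were lowest in replicate 1 of each group, as *Tgfb2* was. Of 10 latency and activation genes tested, 0 were called over all 6 libraries. A negative difference was seen for 9 of them, against 6041 of the 12305 genes tested, and the group's median was 0.14, -0.19 and -0.47 for replicate numbers 1, 2 and 3. *Ltbp3* and *Ltbp4*, which encode proteins that tether latent TGF-beta to the matrix, were called lower in replicates 2 and 3 alone. *Ltbp3* was at 2.15, 3.90 and 3.88 FPKM in WT and at 2.35, 1.75 and 1.54 FPKM in CKO. Its log2 difference was -0.75 ± 0.27 over all 6 libraries (adjusted *p* = 0.51) and -1.19 in replicates 2 and 3. Limma voom with the replicate block called *Ltbp3* and *Dcn* lower (adjusted *p* = 0.010 and 0.0096). That fit called 424 of 12300 genes lower and 228 higher. *Fbn2*, which encodes a fibrillin and was the most abundant of that group, was at 37.0 ± 3.27 FPKM in WT and 33.7 ± 8.34 in CKO, and *Itgav*, an integrin chain that releases TGF-beta from its latent complex, at 6.92 ± 0.548 and 7.46 ± 0.593 (SD, n = 3).

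For the genes that act inside the cell, the median log2 difference of the 15 transducers and brakes was 0.03, and 0 were called over all 6 libraries. *Smad4*, the partner of SMAD2 and SMAD3, was at 29.6 ± 2.43 FPKM in WT and 32.1 ± 2.52 in CKO (SD, n = 3; adjusted *p* = 0.86). *Usp15*, which encodes a deubiquitinase that acts on the receptor complex, was at 7.29, 6.29 and 6.80 FPKM in WT and at 7.28, 11.6 and 8.63 FPKM in CKO and was called higher in replicates 2 and 3 alone. *Pmepa1*, a target and brake of the pathway, was at 1.43, 2.05 and 1.97 FPKM in WT and at 1.90, 1.23 and 1.47 FPKM in CKO and was called lower in those replicates.

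Of 12 response genes, 6 had a positive and 6 a negative difference over all 6 libraries, and 0 were called. *Scx*, the tendon progenitor factor, was at 14.5, 43.9 and 32.6 FPKM in WT and at 13.7, 21.01 and 21.4 FPKM in CKO. It too was low and nearly equal in both replicate 1 libraries, and its log2 difference was -0.58 over all 6 libraries and -0.83 in replicates 2 and 3 alone. Limma voom with the block called it lower (adjusted *p* = 0.010), as it did 424 of 12300 genes. *Acta2*, the gene for smooth muscle actin, was at 2.46, 16.8 and 15.6 FPKM in WT and at 7.82, 23.1 and 18.6 FPKM in CKO. Its log2 difference of 0.78 ± 0.73 over all 6 libraries had an adjusted *p* value of 0.85. It was 1.63, 0.46 and 0.25 for replicate numbers 1, 2 and 3. The adjusted *p* value was 0.057 with the block and 0.037 with limma voom and the block, where 228 of 12300 genes were called higher. *Fn1*, the gene for fibronectin and the most abundant response gene, was at 68.5 ± 10.3 FPKM in WT and 64.7 ± 16.3 in CKO (SD, n = 3). In replicates 2 and 3 alone *Tgfbi* and *Tnc*, both for matrix proteins, were also called lower and *Klf10*, an early TGF-beta response gene, higher. *Ltbp4*, *Tgfbi*, *Tnc* and *Klf10* are named here because they were called, after their values were seen.

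**Figure D5:**
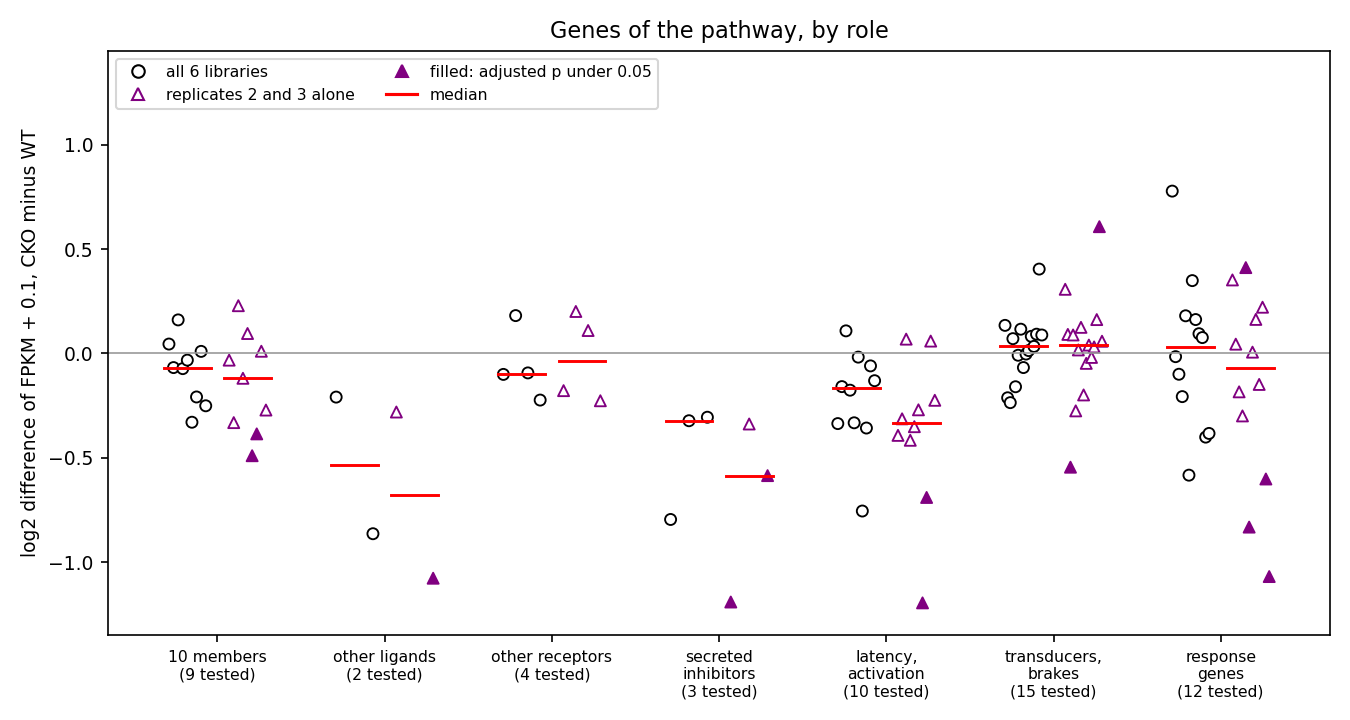
Log2 difference between CKO and WT of each tested gene, by role, over all 6 libraries (circles) and in replicates 2 and 3 alone (triangles), with medians in red. Filled symbols have an adjusted *p* value under 0.05. No circle is filled, and the filled triangles are 2 members and 9 other genes lower and 2 genes higher in CKO.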

How the data were processed

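RNA-seq of E11.5 limb bud cells was analysed for 3 WT and 3 CKO libraries, grouped by the sample titles. The libraries were stranded mRNA libraries. The values are FPKM as deposited by the authors, with 1 column per library and protein-coding genes alone. The submitters' processing notes name cutadapt 2.5, HISAT2 2.1.0, featureCounts 1.6.3 and the mm10 build, without their roles or order. Gene positions and exon lengths were taken from GENCODE release M21 (GRCm38), in which 99.9% of the identifiers were found. FPKM times exon length and library size gave whole reads, within 0.1 reads, in all libraries for 92.7% of the genes. The library sizes that this needed were 18026062, 23935514 and 21810392 for WT and 18099468, 19146570 and 23848048 for CKO replicates 1, 2 and 3. The summed reads were 0.955, 0.968 and 0.957 times these sizes in WT and 0.947, 1.11 and 1.03 times in CKO. This ratio was thus higher in CKO replicates 2 and 3 than in any WT library. For *Fst* and *Smad2* the reads did not come out whole, and no reads are given. The same held for *Ltbp3*, *Fbn2*, *Scx* and *Acta2* among the named genes of the pathway list. The voom results of such genes therefore rest on rounded values that may not be their true counts.

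The 12305 genes whose mean FPKM reached 0.5 were tested on log2(FPKM + 0.1) with limma 3.58.1 in R 4.3.3 (lmFit, and eBayes with a trend), with Benjamini-Hochberg adjustment over all of them. For low genes, a difference on this scale is smaller than the true change. Intervals are 95% intervals of that fit. The test was checked on simulated independent libraries with no shared replicate differences and with larger effects than those of the members. That check does not show how the test performs on these libraries. Ratios were tested by exact permutation of the 6 libraries, two-sided. The WT and CKO libraries share replicate numbers. The deviations of same-numbered libraries from their group means correlated across genes with r of 0.64, 0.44 and 0.27. Differences between same-numbered libraries are therefore given, and the replicate block was fitted as an alternative. The main fit and the permutation of ratios did not use this pairing, so their errors, intervals and *p* values treat the libraries as unpaired. What a number stands for is not given in the sources used here. Alternatives were other pseudocounts, filters, scalings and variance models, the replicate block, limma voom on the recovered reads (rounded) and leaving out each library. Replicates 2 and 3 alone, voom with the summed reads as library size, and the fits without a filter under the block or in replicates 2 and 3 were added after seeing the data.

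The members and the lists were chosen with earlier results of these data known. The text names every member, *Hnrnpk*, and, of the pathway list, each gene called over all 6 libraries or with the block, and in each role the most abundant gene and those with the largest rise and fall.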

Additional observations from a re-analysis of the deposited data

How the results depend on the processing

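Over all 6 libraries, limma called 7 genes higher and 1 lower in CKO. No filter left 0 lower, and quantile normalization gave 13 higher. With the replicate block there were 139 higher and 207 lower, with voom and the replicate block 228 and 424, with voom on summed reads and the replicate block 112 and 665, and in replicates 2 and 3 alone 867 and 984. The counts with the replicate block on FPKM and in replicates 2 and 3 alone rested on the filter. With no filter there were 10 and 0 with the replicate block, and 0 and 0 in replicates 2 and 3 alone. In the latter fit 0 members and 0 pathway genes were called. Voom was run only with the filter. Leaving out 1 library gave 1 to 10 higher and 0 to 13 lower. Members called lower numbered 2 in replicates 2 and 3 alone (*Tgfb2* and *Tgfb3*) and 1 with voom on summed reads and the replicate block (*Tgfb2*, adjusted *p* = 0.039 by limma), and 0 in the other settings. Members lower at an unadjusted *p* value under 0.05 numbered 1 with the replicate block, 1 with voom and the block, and 1 with the block and no filter. They numbered 3 with voom on summed reads and the block, and 1 with voom on summed reads. In replicates 2 and 3 alone they numbered 2 with the filter (*Tgfb2* and *Tgfb3*) and 2 without it (*Tgfb2* and *Inhba*). Leaving out 1 library gave 0 to 1, where the 1 came without WT replicate 1. Of the pathway list, 1 gene was lower with the replicate block, 4 were lower and 1 higher with voom and the block, 7 lower with voom on summed reads and the block, and 9 lower and 2 higher in replicates 2 and 3 alone. In the limma fit on FPKM with the filter, the replicate block changed no other call among the members and the pathway list (*Inha* alone was called). The causes were not tested.

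Differences near 0 changed sign. *Tgfb1* became 0.041 with quantile normalization and 0.10 in replicates 2 and 3 alone. *Tgfbr1* became -0.044 with quantile normalization, -0.0870 with voom on summed reads and -0.0868 with the block added. *Acvr2a* became -0.032 in replicates 2 and 3 alone, filtered or not, -0.052 with voom on summed reads and -0.057 with the block added. On leaving out 1 library, log2 differences ran from -0.15 to 0.17 for *Tgfb1*, -0.038 to 0.066 for *Tgfbr1*, -0.39 to 0.13 for *Fst*, -0.048 to 0.19 for *Acvr2a*, -0.20 to 0.013 for *Smad3*, -0.13 to 0.51 for *Acvr2b*, -0.30 to 0.029 for *Fn1* and -0.11 to 1.25 for *Acta2*. The log2 ratios ran from -0.31 to 0.71 for *Fst* to *Inhba*, -0.33 to 0.10 for *Tgfb2* to *Tgfb3* and -0.0027 to 0.66 for *Tgfb1* to the other two. *Tgfb2* stayed lower in CKO in every setting run, from -0.65 to -0.16. Voom on summed reads moved the median of all genes to -0.09. The lowest library held 9 reads of *Inhba* and 34 of *Inha*.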
